A study of Mus musculus with 14 samples.

Results

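The integrated stress response was described through 10 genes, the transcription factors Atf4, Atf5, Ddit3 and Atf3 and the ATF4 target genes Trib3, Sesn2, Asns, Psat1, Phgdh and Chac1. They were taken by gene symbol from the 43346 genes of a read count table, and each symbol matched 1 gene. The table holds RNA sequencing of a brain cross-section with hippocampus and cortex from 14 female mice aged 23 months, each mouse a separate library, on the strain C57BL/6;SJL-Tg. Non-transgenic littermates (NTG, 4 mice, numbered 7 to 10) were compared with APP/PS1 mice, which carry transgenes for mutant APP and PS1 (genotype APP/PS1 +/+), without CP2 (5 mice, 16 to 20) and with CP2 (5 mice, 21 to 25). CP2 is a small molecule that partially inhibits complex I of the mitochondrial respiratory chain, and treated mice drank it in water with 0.1% PEG, at a dose of 25 mg/kg/day that began when they were 9 months old and lasted 14 months. The labels call the mice without CP2 non-treated, while the treatment protocol gives them vehicle water. NTG mice given CP2 were not analysed here, so the treatment is seen in transgenic mice alone.

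In the integrated stress response, kinases that sense amino acid shortage, unfolded proteins, double-stranded RNA or heme shortage phosphorylate the translation initiation factor eIF2. Most protein synthesis is then lowered, while the mRNAs of Atf4, Atf5 and Ddit3 are translated more through upstream open reading frames, so that ATF4 protein can rise without a change in its mRNA. ATF4 binds C/EBP-ATF response elements and turns on genes of amino acid synthesis and transport. Inhibition of the respiratory chain is a known trigger of the response, and serine synthesis from glucose, the pathway of Phgdh and Psat1, is active in astrocytes.

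Promoter sequences are shown because 4 of the 10 genes carried the core of the C/EBP-ATF response element, the DNA letters that ATF4 reads with its partners. The windows came from RefSeq on GRCm38.p6, the build of mm10, and spanned 250 bases before to 50 bases after each start site, and all 10 genes matched. The letters TGATGNAA, searched on both strands, were held by 3.97% of the 32851 windows, or by windows of 4.51% of the 27025 genes. Among the members they stood in the windows of Atf3, Trib3, Asns and Chac1. The full cAMP response element, TGACGTCA, was held by 1.79% of windows (2.03% of genes) and by 0 of the members. Each stretch below runs 5′ to 3′ in the direction of its gene, with the matching letters in capitals and 11 bases on each side. The match began 110 bases before the start site in Atf3 (chr1:191183425-191183454, minus strand), 193 bases before it in Chac1 (chr2:119351038-119351067, plus strand), 23 bases before it in Asns (chr6:7693214-7693243, minus strand) and 14 bases after it in Trib3 (chr2:152344028-152344057, minus strand).
Atf3: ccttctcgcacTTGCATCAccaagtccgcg
Chac1: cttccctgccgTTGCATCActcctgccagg
Trib3: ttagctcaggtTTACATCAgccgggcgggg
Asns: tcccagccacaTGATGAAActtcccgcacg
The same 8 letters stood in Atf3 and Chac1, on the strand opposite to TGATGNAA. Among tested members, Atf3 had the log2 fold change of greatest absolute size (1.92) and Chac1 that of least (-0.0018), in APP/PS1 against NTG mice. Whether the letters had a part in either value was not tested. For Atf3 the 250 bases before its RefSeq start site (chr1:191183334-191183583, minus strand), which lies inside the gene's span in the table, are given in full with the same letters in capitals.
Atf3: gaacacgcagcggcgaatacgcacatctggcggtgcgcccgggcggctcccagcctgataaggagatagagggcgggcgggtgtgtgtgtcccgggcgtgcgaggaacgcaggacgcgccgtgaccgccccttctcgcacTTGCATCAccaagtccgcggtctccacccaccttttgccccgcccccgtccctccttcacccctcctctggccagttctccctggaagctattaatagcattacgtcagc

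Levels of different genes were compared in the authors' RPKM, which scales reads by gene length and library size, averaged over the 14 mice. Atf4 was the most abundant member at 37.9 RPKM. It was followed by 3 amino acid synthesis enzymes, Asns (asparagine synthetase) at 23.9, Psat1 (phosphoserine aminotransferase, the enzyme after Phgdh) at 22.2 and Phgdh (phosphoglycerate dehydrogenase, the entry to serine synthesis) at 17.9 RPKM. Ddit3, the gene of the cell death factor CHOP, stood at 10.4, Atf5 at 7.54, Sesn2 (sestrin 2, a leucine-binding inhibitor of mTORC1) at 4.15 and Chac1 (an enzyme that degrades glutathione) at 2.51 RPKM. The lowest were Atf3, a stress-induced factor that also represses its own promoter, at 0.894 and Trib3, a pseudokinase that inhibits ATF4 and CHOP, at 0.349 RPKM. The ranges over mice of neighbours in this order overlapped for Asns and Psat1 (21.1 to 29.6 against 19.4 to 27.4 RPKM), for Psat1 and Phgdh (Phgdh 14.2 to 20.8) and for Atf3 and Trib3 (0.264 to 1.66 against 0.149 to 0.631), and for no other neighbours. Counts per mouse ran from 32 to 170 for Trib3 and from 62 to 346 for Atf3, and reached 7736 to 13178 for Psat1, so that the first 2 genes carry the largest counting error.

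Values per mouse are given as CPM, counts scaled to a common library size with edgeR's TMM factors, and comparisons as edgeR quasi-likelihood tests over all genes with Benjamini-Hochberg adjustment. Total counts ran from 70548781 to 106235625 per mouse, and 2 ribosomal RNA-like genes took 2.40 to 7.50% of them. Mouse 16, an APP/PS1 mouse without CP2, stood apart, with striatum markers summing to 2658 CPM against at most 403 CPM in any other mouse. Markers of neurons, astrocytes, oligodendrocytes and microglia were counted in every group, and no listed marker was at 0 in all mice. In brain tissue taken as a whole, fewer cells of a type and less RNA per cell cannot be told apart.

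**Figure D1:**
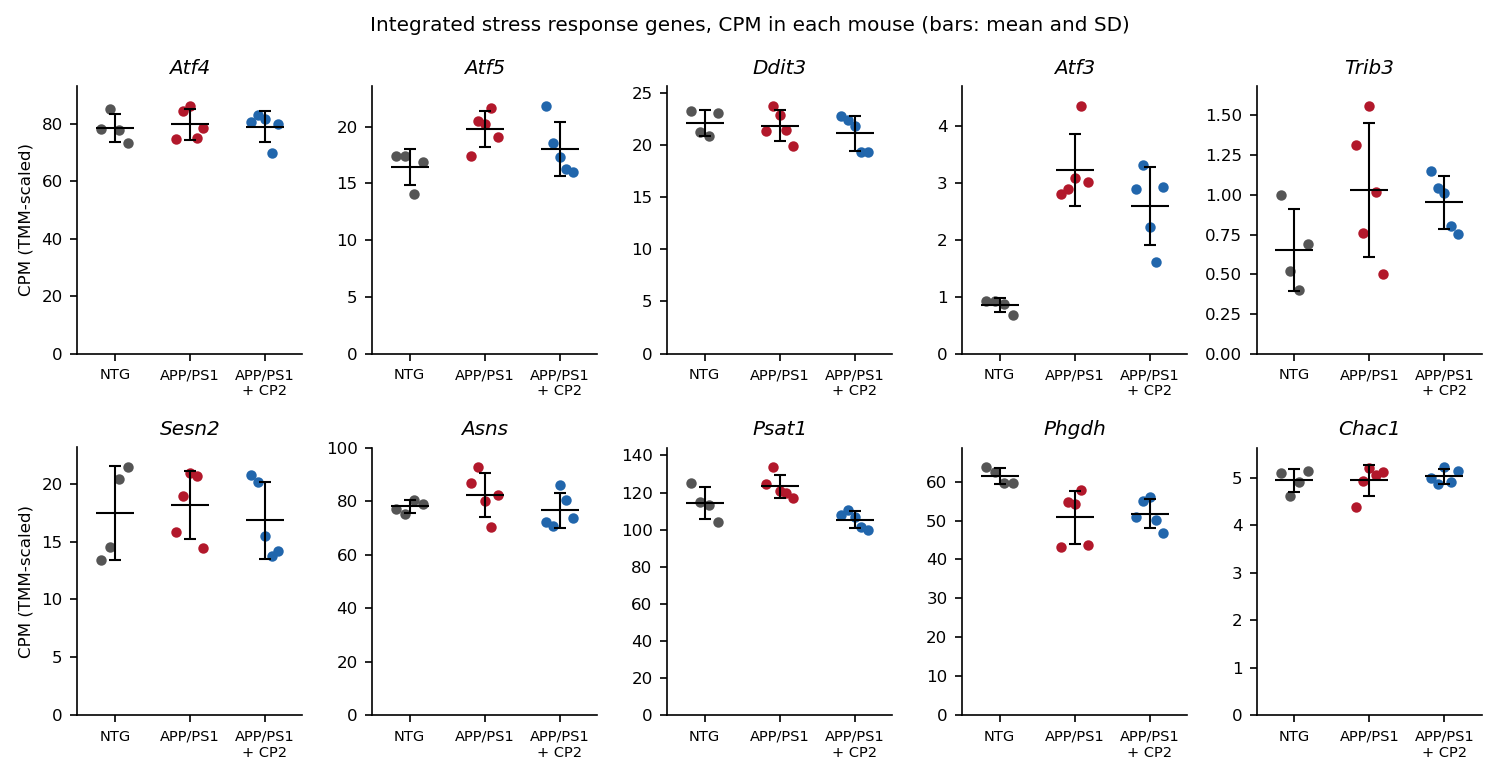
CPM (vertical axes, from 0) of the 10 genes in each mouse (points) of the NTG, APP/PS1 and CP2-treated APP/PS1 groups, with the mean and SD as bars. The NTG mice lie below both other groups for Atf3 and above both for Phgdh, CP2-treated mice lie below APP/PS1 mice for Psat1, and the 3 groups overlap for Atf4, Ddit3, Trib3, Sesn2, Asns and Chac1.

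The first comparison, of APP/PS1 with NTG mice, none given CP2, asks what the transgenes changed. Of the 10 genes, Atf3 alone passed the adjusted test, rising 3.79-fold, while Atf4 itself differed by a log2 fold change of 0.02 with a 95% interval from -0.11 to 0.16. Atf5 was higher and Phgdh lower at an unadjusted p under 0.05 only. The enzymes Asns, Psat1 and Chac1 and the regulators Ddit3 and Sesn2 were not called. Of all 16417 genes tested, 5.68% had an adjusted p under 0.05, 18.7% an unadjusted p under 0.05 and 9.96% groups without overlap, beside 1, 3 and 3 of the 9 members tested. The 932 genes of the adjusted count were 578 without NTG mouse 9 and 1474 without mouse 16. Only genes above 1 CPM in all mice of a group entered the test, and Atf3 passed only through the APP/PS1 groups, since 0 of 4 NTG mice exceeded 1 CPM. Trib3 did not pass, exceeding 1 CPM in 3 of 5 APP/PS1 mice, 3 of 5 CP2-treated mice and 0 of 4 NTG mice. Of the tested members 6 were higher and 3 lower, with a median log2 fold change of 0.06 beside a median of -0.004 over all genes.

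Atf3 (ENSMUSG00000026628, chromosome 1 from 191170296 to 191218039 of mm10) measured 0.929, 0.923, 0.877 and 0.680 CPM in the NTG mice and 2.80, 2.89, 3.09, 4.35 and 3.02 CPM in the APP/PS1 mice. Every APP/PS1 mouse lay above every NTG mouse, and mouse 19 was the highest of its group. The mean was 0.852 ± 0.117 CPM (SD, n = 4) in NTG and 3.23 ± 0.639 CPM (SD, n = 5) in APP/PS1 mice, a log2 fold change of 1.92 (standard error 0.17, 95% interval 1.54 to 2.30, edgeR adjusted p = 0.000229). Atf3 ranked 38th by p among the genes tested, and its adjusted p was under 0.05 in each of 17 alternative fits, including those without the expression filter and with a minimum of 10 counts in every mouse (log2 fold changes from 1.79 to 2.09). The 10 immediate early genes listed (Fos, Egr1, Arc and others) all had lower values in APP/PS1 mice, with a median of -0.66. Of these 0 passed the adjusted edgeR test and 1 had an unadjusted p under 0.05, beside 18.7% of all genes. Their sums overlapped, at 223 to 634 CPM in NTG and 114 to 635 CPM in APP/PS1 mice. Between the APP/PS1 groups all 10 were higher with CP2 (median 0.33), and 0 had an unadjusted p under 0.05, beside 6.55% of all genes. The part of these genes in the values of Atf3 was not tested.

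The other transcription factors did not pass the adjusted test. Atf4 (ENSMUSG00000042406, chromosome 15 from 80255184 to 80257540) measured 78.2, 85.0, 77.8 and 73.2 CPM in NTG and 74.9, 84.6, 86.3, 74.9 and 78.6 CPM in APP/PS1 mice, and the groups overlapped. Ddit3 (ENSMUSG00000025408, chromosome 10 from 127290774 to 127296288) had means of 22.1 ± 1.23 CPM (SD, n = 4) and 21.9 ± 1.51 CPM (SD, n = 5), with a log2 fold change of -0.02 (95% interval -0.16 to 0.13). Atf5 (ENSMUSG00000038539, chromosome 7 from 44812257 to 44816658), an ATF4-like factor tied to the mitochondrial unfolded protein response, measured 17.4, 17.4, 14.1 and 16.9 CPM in NTG and from 17.4 to 21.7 CPM (median 20.3) in APP/PS1 mice. The lowest APP/PS1 value, that of mouse 16, was only just above the highest NTG value. The log2 fold change of Atf5 was 0.27 (standard error 0.09, 95% interval 0.08 to 0.46, edgeR adjusted p = 0.114). Its adjusted p ranged from 0.0288 to 0.255 over 17 alternatives and was under 0.05 with DESeq2 (0.0361), with limma-voom (0.0288) and without mouse 16 (0.0384).

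Reads of Atf5 and Ddit3 are shared in part with other genes. In the GENCODE vM21 annotation the exons of Atf5 share 82 bases with Il4i1 and Nup62 on the opposite strand, and those of Ddit3 share 68 bases with Mars and 13 with Gm4189 on the opposite strand and 105 with another gene record of the same name on its own strand. The counting assigned a read to each gene it overlapped, and the library kit does not mark strand, so the share of such reads in Atf5 and Ddit3 is unknown. Il4i1 had 386 to 758 counts per mouse against at least 1124 for Atf5, and a log2 fold change of 0.41 between APP/PS1 and NTG mice (adjusted p = 0.0683). Mars was counted more than Ddit3, with 2980 to 5017 counts per mouse against at least 1427 for Ddit3.

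Of the serine synthesis pair, Phgdh (ENSMUSG00000053398, chromosome 3 from 98313170 to 98339990) measured 63.7, 62.5, 59.7 and 59.7 CPM in NTG and 43.3, 54.9, 54.4, 57.9 and 43.8 CPM in APP/PS1 mice. All 5 APP/PS1 mice lay below the 4 NTG mice, with mice 16 and 20 lowest. The log2 fold change was -0.27 (standard error 0.09, 95% interval -0.47 to -0.07, edgeR adjusted p = 0.134). Psat1 (ENSMUSG00000024640, chromosome 19 from 15904678 to 15947337) measured 125, 115, 113 and 104 CPM in NTG and 125, 134, 121, 120 and 117 CPM in the APP/PS1 mice without CP2. These groups overlapped, with a log2 fold change of 0.11 (95% interval -0.03 to 0.24, adjusted p = 0.382). Within each mouse Psat1 counts were 1.74 to 1.96 times those of Phgdh in NTG, 2.07 to 2.88 times in APP/PS1 and 1.91 to 2.13 times in CP2-treated mice on the CPM scale, which is not corrected for gene length. This ratio was looked at after the values of both genes were seen, and no test was made of it.

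The remaining ATF4 targets overlapped between the groups. Asns (ENSMUSG00000029752, chromosome 6 from 7675169 to 7693254) averaged 78.1 ± 2.31 CPM (SD, n = 4) in NTG and 82.4 ± 8.34 CPM (SD, n = 5) in APP/PS1 mice, a log2 fold change of 0.08 (95% interval -0.08 to 0.24). Chac1 (ENSMUSG00000027313, chromosome 2 from 119351229 to 119354381) averaged 4.95 CPM in both groups (SD 0.240, n = 4, and SD 0.326, n = 5), with a 95% interval from -0.19 to 0.18. Sesn2 (ENSMUSG00000028893, chromosome 4 from 132492032 to 132510501) was the most variable of the tested members in NTG mice, at 13.4, 14.5, 20.4 and 21.4 CPM. Its APP/PS1 values were 15.8, 18.9, 20.9, 20.7 and 14.4 CPM, and the interval of its log2 fold change ran from -0.31 to 0.43, the widest of the tested members other than Atf3. Trib3 (ENSMUSG00000032715, chromosome 2 from 152337422 to 152344032) measured 0.997, 0.521, 0.401 and 0.691 CPM in NTG and 1.31, 0.761, 1.56, 1.02 and 0.499 CPM in APP/PS1 mice. Since it was not in the fit, its mean log2 CPM was compared by an exact two-sided permutation test over 126 groupings, which gave a difference of 0.61 with p = 0.183, where the smallest p possible was 0.00794.

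The second comparison, of the APP/PS1 groups with each other, asks how the complex I inhibitor changed the transgenic brain. By edgeR's adjusted test 0 of the 9 tested members changed, and the ranges of the groups overlapped for all of them but Psat1. Psat1 was lower in all 5 treated mice than in any untreated APP/PS1 mouse, at 0.852 times their level, but its adjusted p did not pass. By the adjusted tests of DESeq2 and limma-voom 1 and 0 members were called, and 1 member had an unadjusted edgeR p under 0.05. Over all 16407 genes tested 0.00609% (1 gene) passed the adjusted test, 6.55% the unadjusted test, and 1.18% had groups without overlap, beside 0, 1 and 1 of the 9 members. The 1074 genes of the unadjusted count were 642 and 696 without mouse 24 or 25, and the adjusted count was 0 without mouse 22. Of the members 2 were higher and 7 lower in treated mice, with a median of -0.11 beside -0.006 over all genes.

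Psat1 measured 108, 110, 107, 102 and 99.8 CPM in the CP2-treated mice, against 117 to 134 CPM without CP2. The means were 105 ± 4.47 and 123 ± 6.40 CPM (SD, n = 5 each), with a log2 fold change of -0.23 (standard error 0.05, 95% interval -0.34 to -0.13, edgeR adjusted p = 0.540). Psat1 ranked 14th by p. With DESeq2, which called 23 genes in this comparison, its adjusted p was 0.00752, and over 18 alternatives the adjusted p ranged from 0.00752 to 0.989. The treated mice lay in the lower part of the NTG range of 104 to 125 CPM or below it. Thalamus markers were higher in the treated mice (summed 350 to 520 CPM against 164 to 408 CPM), and their part in the difference was not tested. Of these markers 5 of 8 had an unadjusted p under 0.05, beside 6.55% of all genes. The sum of 164 CPM was that of mouse 16, and the other untreated APP/PS1 mice lay at 281 to 408 CPM. Without mouse 16 the log2 fold change of Psat1 was -0.22.

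Atf3 measured 2.90, 3.32, 2.225, 1.602 and 2.93 CPM with CP2, and its range overlapped that of the untreated APP/PS1 mice. The log2 fold change was -0.32 (standard error 0.19, 95% interval -0.75 to 0.11, edgeR adjusted p = 0.758), so that no decrease and a decrease by 0.75 on the log2 scale both lay within the interval. Atf5 measured 16.03 to 21.8 CPM (median 17.4) with CP2, a log2 fold change of -0.14 (95% interval -0.34 to 0.05). Atf4 measured 80.7, 83.0, 81.7, 69.8 and 79.9 CPM, and its log2 fold change of -0.02 had a 95% interval from -0.15 to 0.11. The intervals were -0.29 to 0.07 for Asns, -0.20 to 0.10 for Ddit3, -0.17 to 0.21 for Phgdh, -0.13 to 0.17 for Chac1 and -0.43 to 0.20 for Sesn2. All of these held 0. Trib3 measured 1.15, 1.04, 1.01, 0.801 and 0.754 CPM with CP2, a difference in mean log2 CPM of -0.03 (exact permutation test, two-sided, 252 groupings, p = 0.944).

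The third comparison set the CP2-treated APP/PS1 mice against NTG mice, and shares its mice with the other 2 comparisons. Atf3 rose 3.05-fold and Phgdh fell to 0.844 times the NTG level, and the other tested members did not pass either threshold. The 2 members called are read beside 6.02% of 16416 genes at an adjusted p under 0.05, 20.2% at an unadjusted p under 0.05 (2 members) and 9.72% without overlap (2 members). The 989 genes of the adjusted count were 623, 572 and 616 without mouse 8, 9 or 21. The median over the 9 members was -0.03, beside -0.002 over all genes.

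The log2 fold change of Atf3 was 1.61 (standard error 0.22, 95% interval 1.13 to 2.08, edgeR adjusted p = 0.00152), and the 17 alternatives gave 1.496 to 1.74 with adjusted p of at most 0.00839. Phgdh measured 51.0, 55.1, 55.9, 50.2 and 46.9 CPM with CP2, all below the NTG minimum of 59.7 CPM. Its log2 fold change was -0.24 (standard error 0.06, 95% interval -0.37 to -0.12, edgeR adjusted p = 0.0256). This call was lost in 6 of 17 alternatives, with adjusted p of 0.135 when all 3 groups were fitted together and of 0.0523, 0.0737, 0.0535, 0.0671 and 0.0652 without mouse 7, 8, 9, 21 or 24. Psat1, the enzyme after Phgdh, had a log2 fold change of -0.12 (95% interval -0.24 to 0.003, adjusted p = 0.259). Atf4 differed by 0.01 (95% interval -0.12 to 0.14) and Atf5 by 0.13 (95% interval -0.09 to 0.35). Ddit3 (-0.06), Asns (-0.03), Chac1 (0.02) and Sesn2 (-0.05) had intervals that included 0, and Trib3 differed by 0.59 in mean log2 CPM (exact permutation test, two-sided, 126 groupings, p = 0.0556).

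**Figure D2:**
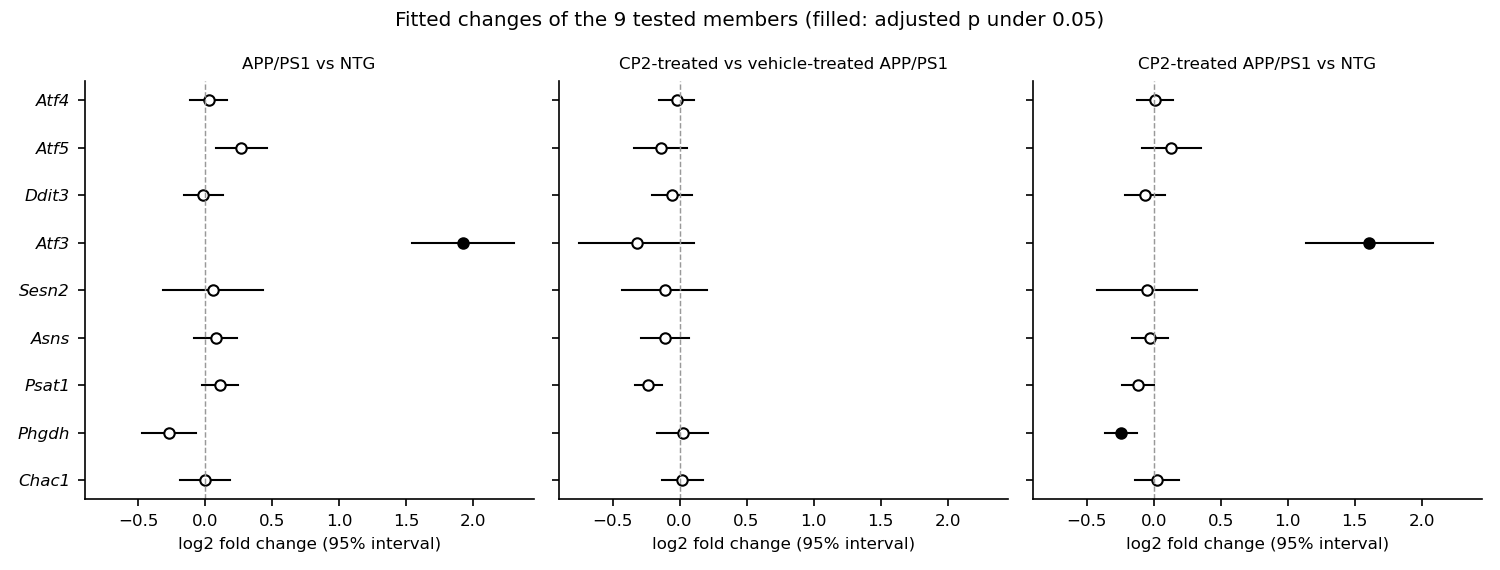
Log2 fold change (horizontal axes) with 95% intervals of the 9 tested members in the 3 comparisons, with filled points for an adjusted p under 0.05. Atf3 stands at 1.92 and 1.61 against NTG mice and Phgdh at -0.24 in CP2-treated APP/PS1 against NTG mice, and no point is filled between the APP/PS1 groups.

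The wider pathway was described through 95 other genes in 11 lists, of which 93, 93 and 92 were tested in the 3 comparisons. In APP/PS1 against NTG mice 4 rose and 2 fell, or 6.45% of them beside 5.68% of all genes, and 21 had an unadjusted p under 0.05 (22.6% beside 18.7%). In CP2-treated APP/PS1 against NTG mice 6 rose and 2 fell, or 8.70% beside 6.02%, and 24 had an unadjusted p under 0.05 (26.1% beside 20.2%). These shares were near those of all genes, and nothing is read from them about the pathway as a whole. DESeq2 called 9 and 15 of them in these 2 comparisons, beside 1667 of 16417 and 1670 of 16416 of all genes. The counts of limma-voom were 8 and 10, beside 1563 and 1274 of all genes. Between the APP/PS1 groups 0 passed the adjusted edgeR test, and 5 had an unadjusted p under 0.05 (5.38% beside 6.55%). There DESeq2 called 1 of them, beside 23 of all genes, and limma-voom 0. The medians of the 93, 93 and 92 genes tested were 0.01, -0.02 and -0.003, beside -0.004, -0.006 and -0.002 over all genes.

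Upstream of ATF4, 1 of the 4 eIF2 kinases rose. This was Eif2ak2 (PKR), which is activated by double-stranded RNA and is itself an interferon-induced gene. It averaged 8.21 ± 0.877 CPM (SD, n = 4) in NTG, 13.6 ± 2.58 CPM (SD, n = 5) in APP/PS1 and 11.7 ± 1.61 CPM (SD, n = 5) in CP2-treated mice, with log2 fold changes against NTG of 0.73 (edgeR adjusted p = 0.0169) and 0.51 (adjusted p = 0.0220). Both calls were lost without NTG mouse 9 or 10, and the second also without mouse 21 and with all 3 groups in one fit (largest adjusted p 0.0646 and 0.0736). The heme, endoplasmic reticulum and amino acid sensing kinases Eif2ak1, Eif2ak3 and Eif2ak4 were not called. Of the 8 subunits of eIF2 and its exchange factor eIF2B, 0 passed the adjusted edgeR test in any comparison. At an unadjusted p under 0.05 they numbered 0, 1 and 1, and DESeq2 called 0, 0 and 1. The smallest p was that of Eif2b2 (log2 fold change -0.15 in CP2-treated APP/PS1 against NTG mice, adjusted p = 0.0851). Of the 3 phosphatase subunits that reverse eIF2 phosphorylation 0 passed, with 0, 0 and 1 at an unadjusted p under 0.05 and 0, 0 and 1 by DESeq2, and the smallest p was that of Ppp1cc (-0.14, adjusted p = 0.0626).

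Among 9 leucine zipper partners and regulators, Nfe2l2 rose. It encodes NRF2, a regulator of antioxidant genes and a partner of ATF4, and averaged 16.6 ± 1.64 CPM (SD, n = 4) in NTG, 26.1 ± 2.94 CPM (SD, n = 5) in APP/PS1 and 23.8 ± 2.88 CPM (SD, n = 5) in CP2-treated mice. The log2 fold changes against NTG were 0.65 (edgeR adjusted p = 0.00317) and 0.52 (adjusted p = 0.00989), without overlap, and each stayed under 0.05 in 17 of 17 alternatives. Between the APP/PS1 groups Nfe2l2 differed by -0.14 (95% interval -0.34 to 0.07).

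Of 9 amino acid transporters 8 were higher in APP/PS1 and 9 in CP2-treated APP/PS1 than in NTG mice, with medians of 0.12 and 0.18. The adjusted test was passed by 1 and 2 of them, beside 5.68% and 6.02% of all genes. At an unadjusted p under 0.05 they numbered 4 and 5, all higher, beside 18.7% and 20.2% of all genes. Endothelium markers were higher for 7 of 8 genes in both comparisons (medians 0.14 and 0.29, 1 and 4 past the adjusted test). They summed to 210 to 223 CPM in NTG, 212 to 306 CPM in APP/PS1 and 239 to 267 CPM in CP2-treated mice, and their part in the transporters' values was not tested. Slc1a5, the glutamine and neutral amino acid exchanger ASCT2, rose most. It averaged 1.80 ± 0.249 CPM (SD, n = 4) in NTG, 4.10 ± 0.273 CPM (SD, n = 5) in APP/PS1 and 2.99 ± 0.287 CPM (SD, n = 5) in CP2-treated mice, with log2 fold changes against NTG of 1.19 (edgeR adjusted p = 0.000376) and 0.73 (adjusted p = 0.00565). All 5 CP2-treated mice lay below the 5 untreated APP/PS1 mice for Slc1a5 (largest 3.44 against smallest 3.87 CPM), with a log2 fold change of -0.46 (standard error 0.09, adjusted p = 0.529 with edgeR, 0.00708 with DESeq2 and 0.455 with limma-voom). Reactive astrocyte and microglia markers also had lower values after CP2, for 7 of 7 and 10 of 10 genes with medians of -0.40 and -0.18, of which 0 passed the adjusted edgeR test and 2 and 1 had an unadjusted p under 0.05. Their part in the values of Slc1a5 was not tested. The arginine and lysine transporter Slc7a1 rose by 0.18 in CP2-treated APP/PS1 against NTG mice (adjusted p = 0.0449). This call was lost in 11 of 17 alternatives, among them RLE factors, no filter and the fits without any of mice 7 to 10, 21 and 23 to 25 (largest adjusted p 0.123).

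Of 10 enzymes of serine, one-carbon and proline metabolism and transsulfuration, Cth fell and Aldh1l2 rose. Cth, which makes cysteine from cystathionine, averaged 4.11 ± 0.270 CPM (SD, n = 4) in NTG, 2.91 ± 0.135 CPM (SD, n = 5) in APP/PS1 and 2.91 ± 0.267 CPM (SD, n = 5) in CP2-treated mice. Its log2 fold change against NTG was -0.50 in both comparisons (edgeR adjusted p = 0.00817 and 0.0139), and each call stayed in 17 of 17 alternatives. Aldh1l2, a mitochondrial enzyme of folate metabolism, averaged 6.91 ± 1.81 CPM (SD, n = 4) in NTG, 13.2 ± 4.34 CPM (SD, n = 5) in APP/PS1 and 13.9 ± 2.27 CPM (SD, n = 5) in CP2-treated mice. Its log2 fold change was 1.01 in CP2-treated APP/PS1 against NTG mice (edgeR adjusted p = 0.00499, 17 of 17 alternatives), and 0.93 in APP/PS1 against NTG mice, where the groups overlapped and the adjusted p was 0.0690 with edgeR, 0.00347 with DESeq2 and 0.0120 with limma-voom. The aminoacyl-tRNA synthetases, which ATF4 induces as a group, were higher for 8 and 6 of 12 genes, with medians of 0.03 and 0.01 against NTG and -0.02 between the APP/PS1 groups. By edgeR 0 passed the adjusted test, with 2, 0 and 2 at an unadjusted p under 0.05 and 0, 0 and 1 by DESeq2, and Iars had the smallest p (0.11 in CP2-treated APP/PS1 against NTG mice, adjusted p = 0.110).

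The next list held 9 genes, among them secreted stress factors and brakes on translation. Of these the hormones by which mitochondrial stress acts at a distance were barely counted. Fgf21 had 0 to 3 and Gdf15 0 to 17 counts per mouse, and neither was tested. Vegfa, a growth factor gene that ATF4 and hypoxia induce, fell, averaging 62.2 ± 2.11 CPM in the NTG mice (SD, n = 4), 43.3 ± 7.49 CPM in the APP/PS1 mice (SD, n = 5) and 51.2 ± 3.78 CPM after CP2 (SD, n = 5), with log2 fold changes of -0.52 (edgeR adjusted p = 0.0312) and -0.28 (adjusted p = 0.0146). The first call was lost in 8 of 17 alternatives, with the ribosomal RNA-like share as a covariate and without any of mice 7 to 10 and 18 to 20 (largest adjusted p 0.177), and the second with all 3 groups in one fit and without mouse 9 (largest adjusted p 0.179). Of 9 mitochondrial stress sensors and chaperones 0 passed by edgeR, with 1 (higher), 0 and 2 (both lower) at an unadjusted p under 0.05 and 0, 0 and 1 by DESeq2. The smallest p belonged to 0610009O20Rik, the table's name for Dele1, which relays mitochondrial stress to eIF2 kinase signalling (-0.11 in CP2-treated APP/PS1 against NTG mice, adjusted p = 0.136). Among 18 genes of the other branches of the unfolded protein response Edem1, which marks misfolded glycoproteins for degradation, rose from 25.6 ± 1.51 CPM (SD, n = 4) to 34.2 ± 2.58 and 34.1 ± 2.34 CPM (SD, n = 5 each), with log2 fold changes of 0.42 and 0.41 (edgeR adjusted p = 0.00497 and 0.00276). Of the 4 cell death targets of CHOP 0 passed by edgeR, with 1, 0 and 1 at an unadjusted p under 0.05 and 0, 0 and 1 by DESeq2, and Bcl2l11 had the smallest p (0.26 in CP2-treated APP/PS1 against NTG mice, adjusted p = 0.0755).

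**Figure D3:**
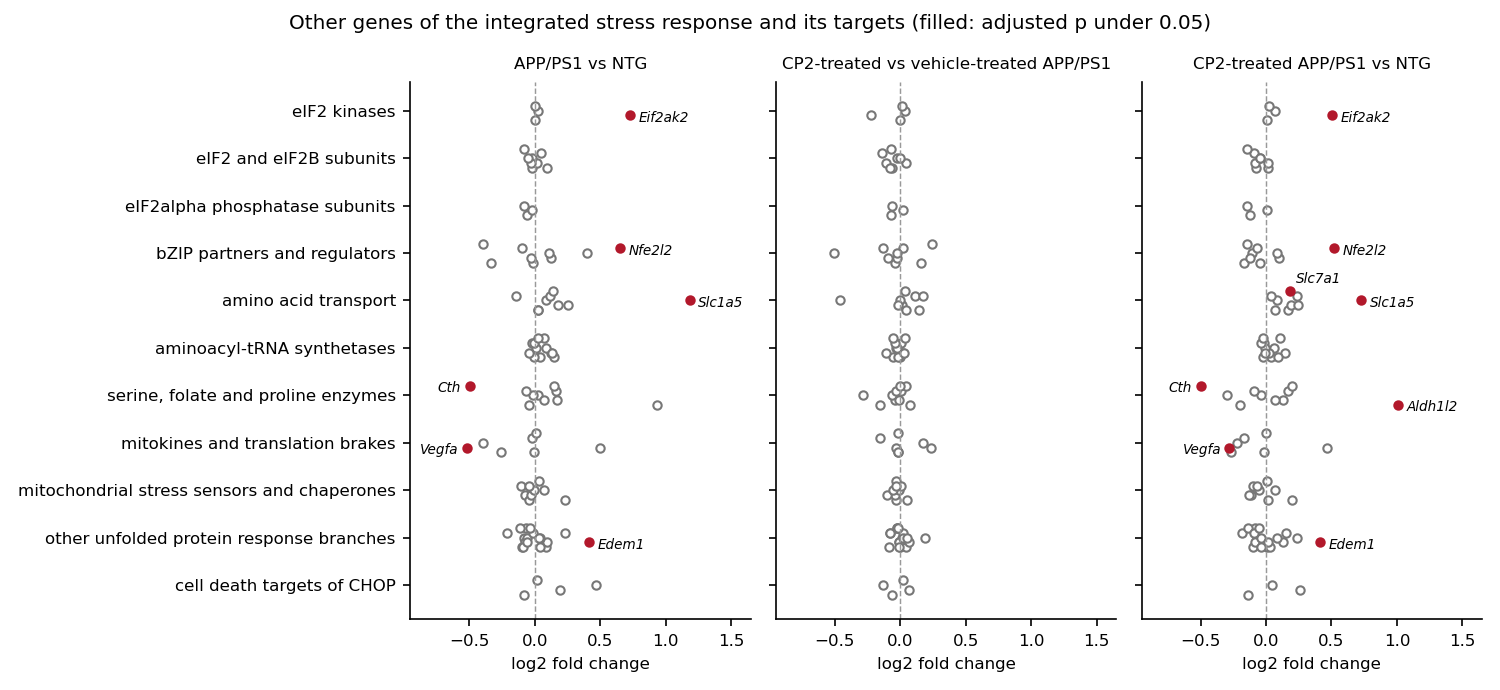
Log2 fold change (horizontal axes) of each tested gene (points) of the 11 pathway lists (rows) in the 3 comparisons, with filled and named points for an adjusted p under 0.05. The named genes are 6 against NTG mice without CP2 and 8 with it, 0 points are filled between the APP/PS1 groups, and most other points lie near 0.

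Some cell type markers also differed between NTG mice and the APP/PS1 groups. Of 7 tested reactive astrocyte markers 7, and of 10 microglia markers 10, rose in APP/PS1 against NTG mice. The reactive astrocyte markers summed to 477 to 740 CPM in NTG, 1384 to 3457 CPM in APP/PS1 and 1649 to 2776 CPM in CP2-treated mice, and the microglia markers to 443 to 459, 821 to 1250 and 728 to 1051 CPM. Mouse 19, the highest in Atf3, was also the highest of its group in both sums. CP2-treated mouse 25, with 2.93 CPM of Atf3 in a group range of 1.60 to 3.32 CPM, was the lowest of its group in both sums. The 10 general astrocyte markers summed to 6168 to 6754 CPM in NTG, 5283 to 5728 CPM in APP/PS1 and 5480 to 5780 CPM in CP2-treated mice, without overlap between NTG and the others. The sum gives abundant genes the most weight. Of the 10 genes 5 were higher and 5 lower in APP/PS1 against NTG mice (median -0.03). The 4 with an unadjusted p under 0.05 (beside 18.7% of all genes) were all lower, and Slc1a2 alone passed the adjusted edgeR test (log2 fold change -0.41, adjusted p = 0.0442). In CP2-treated APP/PS1 against NTG mice 3 were higher and 7 lower (median -0.12). The adjusted test was passed there by 1 higher and 2 lower genes, beside 6.02% of all genes. Neuron markers summed to 6423 to 7228, 6086 to 7199 and 6331 to 7104 CPM. The part of these shifts in the values of Atf3, Phgdh, Psat1, Nfe2l2, Slc1a5 and Cth was not tested.

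**Figure D4:**
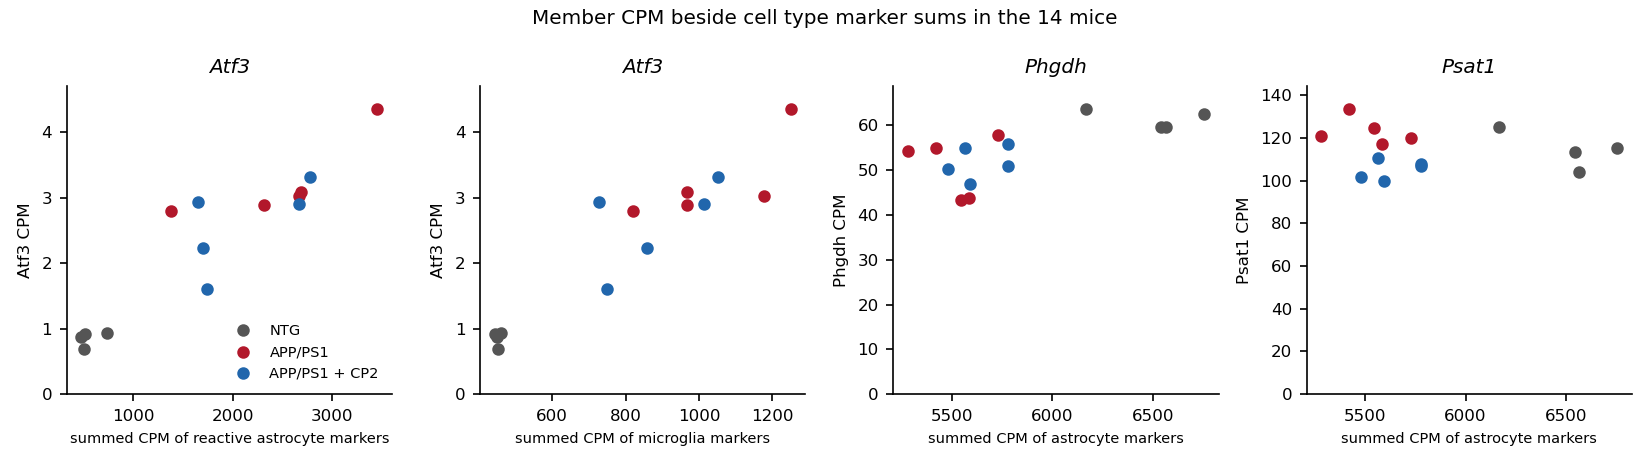
CPM (vertical axes, from 0) of Atf3, Phgdh and Psat1 in each of the 14 mice against the summed CPM of cell type markers (horizontal axes), coloured by group. NTG mice are lowest in Atf3 and in the reactive astrocyte and microglia sums (at most 740 and 459 CPM). They are highest in Phgdh and in the astrocyte sum. CP2-treated mice lie below untreated APP/PS1 mice in Psat1, and the astrocyte sums of these groups overlap. The part of the markers in these values was not tested.

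Between mice of a group the members did not all vary together. After the group mean was removed from log2 CPM, Pearson's r over the 14 mice was positive for 28 and negative for 8 of the 36 pairs of tested members, with a median of 0.28, and exceeded 0.5 for 5 pairs. The points share their libraries and the dissection, and the values are descriptions without a test. The highest r was 0.66 for Atf5 and Ddit3, and Ddit3 also varied with Phgdh and Psat1 (0.58 each). The lowest was -0.74 for Atf3 and Asns (Spearman's rho -0.84), which was -0.73 without mouse 16. Atf3 varied with the astrocyte markers (r = 0.77) and against the neuron markers (-0.75), and Asns did the reverse (-0.67 and 0.82). Phgdh varied with the oligodendrocyte and astrocyte markers (0.74 and 0.70), Atf5 with the astrocyte and reactive astrocyte markers (0.79 and 0.74), and Psat1 with no list beyond 0.42. Without mouse 16 the values were 0.64 and 0.58 for Phgdh and 0.75 and 0.71 for Atf5. Psat1 then reached 0.54 with the oligodendrocyte markers. The r of -0.72 between Chac1 and the striatum markers was -0.27 without mouse 16.

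Over the 16520 other genes compared, the gene most like each member in these centred values was named. It was Ttc9c for Atf4 (r = 0.85), Nhlrc3 for Atf5 (0.92), Erp29, an endoplasmic reticulum protein, for Ddit3 (0.92), Nudt13 for Atf3 (0.91) and D230025D16Rik for Asns (0.96). For Chac1 it was Tmem163 (0.95), for Psat1 Tmbim4 (0.94), for Phgdh Crls1, the cardiolipin synthase of mitochondria (0.93), and for Sesn2 Gm10182 (0.90). These are the highest of many values over 14 mice, and no member was the nearest gene of another.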

How the data were processed

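The authors prepared TruSeq RNA v2 libraries, mapped paired reads to mm10 (TopHat2) and ran featureCounts on Ensembl genes, with each read counted for every gene it overlapped. The deposited table holds read counts per gene without normalization, which were tested here, and RPKM values by the authors, which served only to compare levels between genes. These steps ran within the MAP-RSeq pipeline. The strand setting of the counting is not given in the sources used here. Total counts set the depth given in the text, and precision is that of the spread between mice. Each pair of groups was fitted alone, as in the study, with edgeR 4.0.16 (TMM factors, glmQLFit, glmQLFTest, Benjamini-Hochberg over all genes tested) in R 4.3.3. Genes were tested when the robust CPM of DESeq2 1.42.0 exceeded 1 in every mouse of at least 1 group. Shown log2 CPM values use a prior count of 2. Alternatives were DESeq2, RLE and upper-quartile factors, limma-voom (limma 3.58.1), 1 fit of all 3 groups, no filter or a minimum of 10 counts per mouse, each mouse left out in turn and, chosen after seeing the data, the ribosomal RNA-like share as a covariate. The procedure was tested on simulated data. All members were named, and of each pathway list the genes with an adjusted p under 0.05 in any comparison or, with none, the gene with the smallest p. Members and lists were chosen with earlier results of these data known. Promoter letters came from RefSeq windows.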

Additional observations from a re-analysis of the deposited data

Results flagged for a closer look

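Each member's CPM was examined in each group for a mouse that stood apart from the rest of its group by Dixon's ratio at the 95% level. Of 30 such examinations 2 were positive, where chance gives about 1.5. In CP2-treated APP/PS1 mouse 24 Atf4 measured 69.8 CPM, below the other 4 mice of its group at 79.9 to 83.0 CPM. In APP/PS1 mouse 19 Atf3 measured 4.35 CPM, above the other 4 mice of its group at 2.80 to 3.09 CPM.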

How the results depend on the processing

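Atf3 stayed past the adjusted threshold against NTG mice in each alternative run, whereas the number of members called moved with the tool and the mice. In APP/PS1 against NTG mice it was 1, and 2 with DESeq2 and with limma-voom (Atf5 added), and 1 to 2 with each mouse left out. Between the APP/PS1 groups it was 0, and 1 with DESeq2 (Psat1), and the unadjusted count was 1 to 2 with each mouse left out. In CP2-treated APP/PS1 against NTG mice it was 2, and 1 with all 3 groups in one fit (Phgdh lost) and 1 to 2 with each mouse left out. Members whose log2 fold change lay near 0 changed sign, and the cause was not tested. In APP/PS1 against NTG mice limma-voom gave 0.0082 for Ddit3 and 0.033 for Chac1, upper-quartile factors 0.0087 for Chac1, and the ribosomal RNA-like covariate -0.027 for Asns, 0.038 for Chac1 and -0.00046 for Sesn2. Between the APP/PS1 groups limma-voom gave -0.014 for Chac1 and -0.0095 for Phgdh, and the covariate -0.039 and -0.019. When single mice were left out, APP/PS1 against NTG values ran from -0.0054 to 0.065 for Atf4, from -0.048 to 0.018 for Ddit3, from -0.032 to 0.037 for Chac1 and from -0.050 to 0.18 for Sesn2. Between the APP/PS1 groups they ran from -0.044 to 0.021 for Atf4, from -0.016 to 0.039 for Chac1, from -0.026 to 0.071 for Phgdh and from -0.25 to 0.15 for Trib3. In CP2-treated APP/PS1 against NTG mice they ran from -0.037 to 0.051 for Atf4, from -0.0077 to 0.038 for Chac1, from -0.16 to 0.052 for Sesn2 and from 0.39 to 0.81 for Trib3, the last without mouse 7, where the exact permutation p was 0.0179. That p is unadjusted and comes from 1 of the runs with a mouse left out, beside 0.0556 with all mice. With fewer mice the smallest p possible is larger than the 0.00794 of the full test. No paired analysis was possible because no mouse number is shared between groups. Over all genes the adjusted counts of 932, 1 and 989 were 1667, 23 and 1670 with DESeq2, and the first was 1563 with limma-voom. The second was 2 with the covariate and 0 with all 3 groups in one fit, and its unadjusted count of 1074 was 1779 without the filter, where 33733 genes were tested. Of the pathway genes 8 were called in CP2-treated APP/PS1 against NTG mice by edgeR and 15 by DESeq2. Depth limits Atf3 and Trib3 most.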
